A study of Mus musculus domesticus and Mus musculus molossinus with 8 samples.

Results

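Cytosolic ribosomal protein genes were described across liver and thymus of MSM/Ms (MSM) and C57BL/6 (B6) mice. They were chosen by symbol alone: a gene belonged if its name was Rplp0, Rplp1, Rplp2, Rpsa, or Rpl or Rps followed by a number and at most 1 letter. This took 81 of the 23284 genes in the deposited tables, 49 of the large ribosomal subunit and 32 of the small one. Symbols that add further letters (Rpl36al, Rpl7l1, Rpl22l1) and ribosomal proteins with other names (such as Fau) fell outside the rule.

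Polyadenylated RNA was sequenced from 4 mice aged 8 weeks. MSM, a wild-derived strain that the labels place in Mus musculus molossinus, gave 1 mouse injected into the peritoneum with 1.5 µg of MegaFasL and 1 uninjected mouse, and B6, placed in Mus musculus domesticus, gave the same pair. MegaFasL is a multimeric form of Fas ligand, which triggers the death receptor Fas on hepatocytes and thymocytes. Each mouse contributed its liver and its thymus, so the 8 libraries form 8 groups of 1 library each, and how long after the injection tissues were taken is not stated in the sources used here. Levels are FPKM, fragments scaled to the length of the transcript and to the mapped fragments of the library, a scale that corrects for length and so allows levels of different genes to be set side by side.

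A ribosome is built from ribosomal RNA and from the products of these genes, most of them at 1 copy per ribosome. The large subunit joins amino acids and holds the exit tunnel and the P-stalk, which recruits elongation factors, while the small subunit reads the mRNA. Their mRNAs are among the most abundant of any cell, many start with a pyrimidine tract (the TOP element) through which mTOR signalling regulates their translation, and many of the genes carry small nucleolar RNAs in their introns. The mouse genome also holds many processed pseudogenes made from these mRNAs, which have lost the introns but kept most of the coding sequence.

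The sequences that bear on the values below are shown first. Rpl26 (chr11:68901583-68906989, mm10, plus strand) and Rpl34 (chr3:130726831-130730398) are both at or near 0 in some libraries, and each has a pseudogene listed in the same tables at 223 FPKM or more. Rps27 and Rps27l encode the paired versions of a zinc-finger protein of the small subunit and are the members that lay furthest apart between liver and thymus among those that passed the test. All were read from GENCODE M21 transcripts (mm10), 5′ to 3′ along the coding strand, with positions counted from the first base of the parent gene's coding sequence. Capitals mark the bases that differ within each pair.
Rpl26, bases 139 to 288: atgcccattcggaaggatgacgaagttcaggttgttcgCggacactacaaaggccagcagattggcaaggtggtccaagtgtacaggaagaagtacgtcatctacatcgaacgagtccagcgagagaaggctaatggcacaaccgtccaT
Gm15772, the matching bases: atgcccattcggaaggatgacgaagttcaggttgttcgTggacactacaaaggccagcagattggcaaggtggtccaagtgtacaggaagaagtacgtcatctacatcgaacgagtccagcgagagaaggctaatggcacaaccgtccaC
Rpl34, bases 1 to 150: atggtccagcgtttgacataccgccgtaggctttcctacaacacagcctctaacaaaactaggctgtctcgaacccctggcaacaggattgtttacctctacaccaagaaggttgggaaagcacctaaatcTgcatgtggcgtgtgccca
Rpl34-ps1, the matching bases: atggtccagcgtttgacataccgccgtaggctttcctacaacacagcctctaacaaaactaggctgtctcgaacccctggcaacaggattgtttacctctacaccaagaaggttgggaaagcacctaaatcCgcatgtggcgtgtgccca
Rps27, bases 1 to 252: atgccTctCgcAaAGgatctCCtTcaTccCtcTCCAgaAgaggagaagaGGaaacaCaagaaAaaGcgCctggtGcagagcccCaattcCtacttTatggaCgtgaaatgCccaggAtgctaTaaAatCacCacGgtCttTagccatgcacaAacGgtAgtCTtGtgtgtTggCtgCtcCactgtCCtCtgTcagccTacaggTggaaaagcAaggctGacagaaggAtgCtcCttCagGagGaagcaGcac
Rps27l, bases 1 to 252: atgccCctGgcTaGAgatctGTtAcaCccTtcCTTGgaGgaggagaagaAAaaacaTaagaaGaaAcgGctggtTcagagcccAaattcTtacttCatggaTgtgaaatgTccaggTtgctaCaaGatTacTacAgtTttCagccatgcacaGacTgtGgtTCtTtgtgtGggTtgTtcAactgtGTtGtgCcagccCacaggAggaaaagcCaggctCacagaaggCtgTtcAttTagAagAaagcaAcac

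Over their whole coding sequences, Rpl26 and Gm15772 differed at 2 of 435 bases and Rpl34 and Rpl34-ps1 at 2 of 351. Rpl30 differed from the pseudogene Gm12191 at 1 of 345 bases. The coding sequence of Rps27 was identical over all 252 bases to that of Gm9846, a gene that GENCODE names Rps27rt and lists as protein-coding. Rps27 and Rps27l differed at 60 of 252 bases (76.2% identity), so reads of this pair are far easier to tell apart than those of a gene and its copy. Such sharing was the rule in the family: 78 of 81 members had at least 1 stretch of 50 coding bases that occurred exactly in another GENCODE gene, with a median of 9 such genes. In 44 members over 90% of these stretches were shared, and 24 members had a sharing gene listed in the tables. Rpl3l and Rpl39l were among the 3 members with no shared stretch. The levels of the other 78 are uncertain to the extent that the counting, whose handling of multiply mapped reads is not stated in the sources used here, split reads between a gene and its copies.

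The libraries carried the markers of their tissue: 9 hepatocyte genes summed to 107083 to 144823 FPKM in the 4 livers and 12 thymocyte genes to 1318 to 2225 FPKM in the 4 thymi. The untreated MSM thymus library stood apart by markers of other tissues. Hepatocyte genes summed to 212 and 3180 FPKM in injected and untreated MSM thymus against 78.6 and 42.5 in B6 thymus, airway genes to 1.07 and 1148 FPKM against 7.01 and 4.35, and brown fat genes to 101 and 1046 FPKM against 127 and 157. The untreated B6 liver library stood apart by thymocyte markers. Without Cd1d1, which was higher in liver than in thymus, they summed to 5.24 and 6.06 FPKM in injected and untreated MSM liver against 6.87 and 37.7 in injected and untreated B6 liver.

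The family was highly expressed in every library. Of 81 members, 72 stood at 50 FPKM or more in all 8 libraries and 65 at 100 or more. The median member had 239 FPKM in injected and 234 in untreated MSM liver, and 253 in injected and 285 in untreated B6 liver. In thymus it had 431 FPKM in injected and 399.8 in untreated MSM mice, and 338 in injected and 371 in untreated B6 mice. The medians of the 4 thymi thus lay above those of the 4 livers, and in the livers the MSM medians were the lower pair while in the thymi they were the higher pair.

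**Figure D1:**
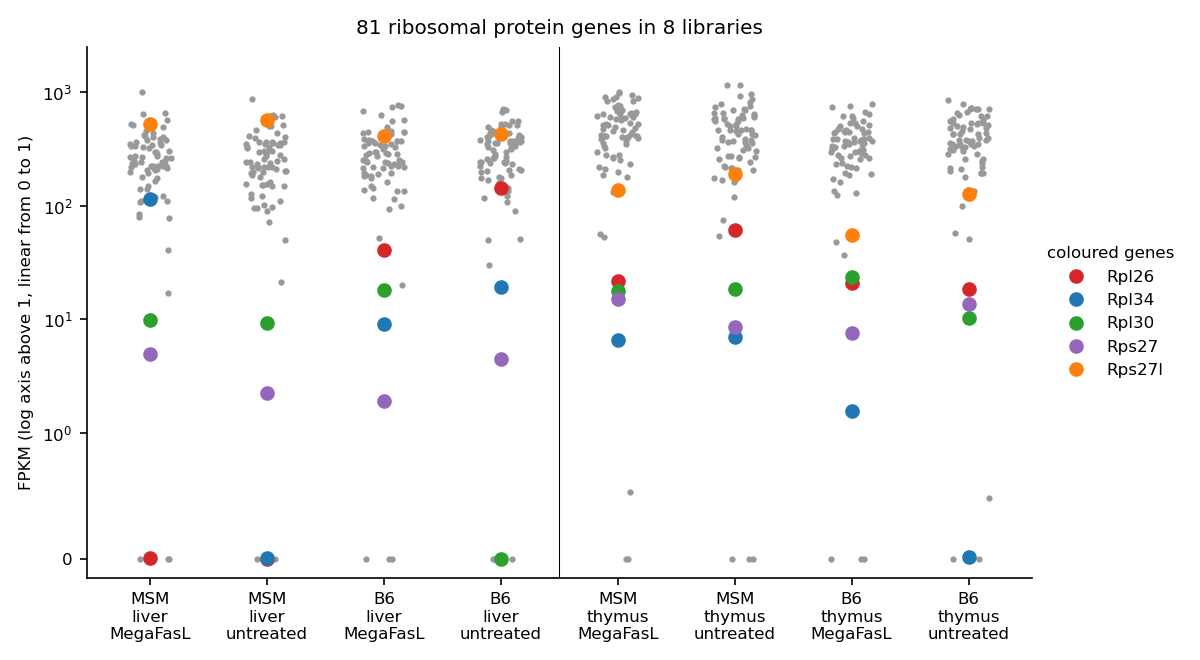
FPKM of 81 ribosomal protein genes (1 point per gene) in each of the 8 libraries, on a log axis above 1 and a linear one from 0 to 1. The medians of all 81 genes are 234 to 285 FPKM in liver and 338 to 431 in thymus, and the coloured genes are Rpl26, Rpl34, Rpl30, Rps27 and Rps27l. Rps27l lies inside the main cloud in liver and in its lower part in thymus. There it stands at 55.5 to 191 FPKM, where the lower quartile of the members is 216 to 277.

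Rpl41, which encodes the shortest ribosomal protein, had the highest mean over the 8 libraries, 836 FPKM, and varied least of the 8 highest members. It stood at 1008 and 874 FPKM in injected and untreated MSM liver and at 753 and 716 in B6 liver. In thymus it stood at 891 and 929 FPKM in MSM and at 793 and 723 in B6. The next highest by mean included Rplp1 (679 FPKM), Rps14 (664), Rpl38 (661), Rps12 (658), Rpl23a (640) and Rpl39 (611). Rpl23a forms part of the tunnel exit where nascent chains meet targeting factors, and Rpl38 is known in mouse for its part in translating Hox mRNAs.

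At the other end, 7 members stayed under 100 FPKM in every library. The muscle paralog Rpl3l and the testis paralog Rpl10l were listed at 0 in all 8 libraries, and the paralog Rpl39l, best known from testis, did not exceed 0.532 FPKM. Their counterparts Rpl3, Rpl10 and Rpl39 had means of 295, 576 and 611 FPKM. Rpl22, whose protein binds RNA in the large subunit and which T-cell development depends on in mice, was low and even, from 40.8 to 53.8 FPKM. Rps15a stood at 16.9 to 30.1 FPKM in liver and 36.5 to 74.4 in thymus, and Rpl30 and Rps27 complete the group.

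Summed over members, the family took 2.74% and 3.04% of all FPKM in injected and untreated MSM liver and 3.62% and 3.67% in B6 liver. In thymus it took 10.6% and 10.9% in MSM and 8.61% and 9.39% in B6. These shares depend on the highest other genes of each library. Without Rn45s, Lars2 and the 20 highest other genes of each tissue, the shares were 4.64% and 5.02% in MSM liver, 5.25% and 5.81% in B6 liver, 14.7% and 14.9% in MSM thymus, and 12.1% and 13.5% in B6 thymus. Thymus stayed above liver, and the order of the strains within each tissue stayed the same.

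Near 0 (under 1 FPKM) in some libraries and at 10 FPKM or more in others were 3 members, Rpl26, Rpl34 and Rpl30. Rpl26, whose protein sits at the tunnel exit and is known from human cells to bind p53 mRNA, stood at 0.00535 FPKM in injected and at 0 in untreated MSM liver, against 40.5 and 142 FPKM in injected and untreated B6 liver. In thymus it stood at 21.9 and 60.7 FPKM in injected and untreated MSM mice, against 20.8 and 18.4 in B6 mice. Both MSM livers were thus low while neither MSM thymus was.

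Rpl34, also of the large subunit, kept no order between the strains in liver and none between the tissues. It stood at 114 FPKM in injected and 0.00571 in untreated MSM liver, against 9.05 and 19.2 FPKM in injected and untreated B6 liver. In thymus it stood at 6.54 and 6.91 FPKM in MSM mice, against 1.55 in injected and 0.0124 in untreated B6 mice. Both MSM thymi thus lay above both B6 thymi. Rpl30, a large subunit protein at the interface of the subunits, was listed at 0 in untreated B6 liver only and at 9.18 to 23.4 FPKM elsewhere.

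The values just above 0 were smaller than a single fragment could give. By the depth estimated from the tables, 1 whole fragment on the Rpl26 transcript corresponds to 2.2 FPKM in the injected MSM liver library, and 1 on Rpl34 to 2.2 FPKM in the untreated MSM liver library. The 142 FPKM of Rpl26 in untreated B6 liver correspond to about 71.4 fragments. The authors' own confidence bounds reached 0 at the lower end for all 81 members in all 8 libraries, as they did for 1165 of the 1167 genes whose mean reached 50 FPKM, and the upper bound was a median of 2.37 times the member's FPKM.

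At each of these genes, and at Rps27, the near-identical copy carried most of the signal. Gm15772 (chr5:3236431-3236868) stood at 400 and 507 FPKM in injected and untreated MSM liver and 404 and 545 in B6 liver, and at 677 and 578 in MSM thymus and 508 and 480 in B6 thymus. Rpl26 therefore held 0% to 20.7% of the sum of both. Rpl34-ps1 (chr6:71124610-71124963) stood lowest, at 223 FPKM, in the injected MSM liver library, the one in which Rpl34 was highest. It stood at 458 FPKM in untreated MSM liver, at 408 and 444 in B6 liver, at 411 and 633 in MSM thymus and at 267 and 595 in B6 thymus.

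Rps27 held at most 1.25% of its sum with Gm9846 (chr9:114982366-114982739). Its own level was 4.92 and 2.21 FPKM in MSM liver, 1.89 and 4.42 in B6 liver, 15.04 and 8.47 in MSM thymus and 7.6 and 13.7 in B6 thymus, while Gm9846 stood at 533 to 1568 FPKM. Rpl30 held 0% to 5.54% of its sum with Gm12191 (chr11:49678710-49679057). With the copies added, Rpl26 ranged from 400 to 698 FPKM over the 8 libraries, Rpl30 from 336 to 520, Rpl34 from 269 to 640 and Rps27 from 535 to 1583. No member is then near 0 in some libraries only, an outcome fixed by the copies, which stood at 223 FPKM or more throughout. Adding the copies was chosen after the values were seen. Which of the loci the RNA came from was not tested.

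**Figure D2:**
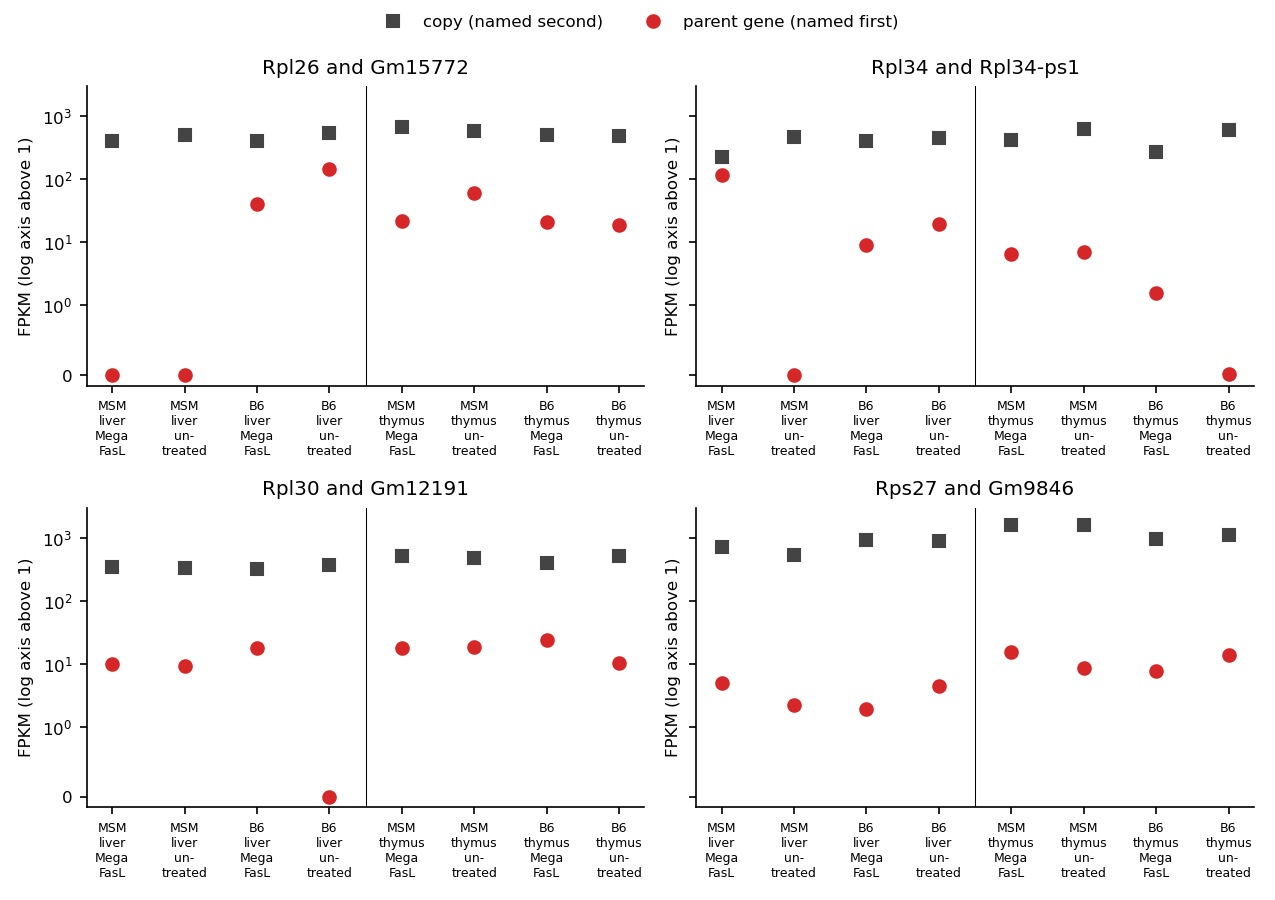
FPKM in each of the 8 libraries (log axis above 1) of 4 ribosomal protein genes (red circles) and of the near-identical copy listed in the same tables (grey squares). The copies stand at 223 to 1568 FPKM throughout, above their parent gene in every library, and the red points near 0 have a grey point of the usual height above them.

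As a description, the genes whose level ran most like Rpl26 over the 8 libraries, among 7948 whose mean reached 5 FPKM, were Cfp (Pearson r = 0.98), Tstd2 (0.97), Cst3 (0.96), Ermp1 (0.95) and Commd8 (0.94), and among the other members the nearest was Rpl14 (0.83). For Rpl34 they were Mrpl54 (0.94), Pih1d1 (0.88), Stk25 (0.88), Usp16 (0.87) and Arl5b (0.87), and among members Rps2 (0.56). The 8 libraries share mice and tissues, so these values rank likeness only.

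The strains were compared first within liver. Of 81 members, 78 had enough signal to test, all but Rpl3l, Rpl10l and Rpl39l. Of these, 1 differed between MSM and B6 liver with limma at an adjusted p under 0.05, where 1.47% of all 10971 genes tested did, 0.51% higher and 0.957% lower. That member was Rpl26, lower in MSM by a difference of -6.26 ± 0.49 on log2(FPKM + 1) (SE, n = 2 mice per strain, 1 injected and 1 untreated, limma adjusted p = 0.0147). With the level of Gm15772 added, the difference was -0.29 ± 0.19 (limma adjusted p = 0.506), so the call does not hold for gene and copy together. Gm15772 holds most of that sum and alone gave -0.06 ± 0.18 (limma adjusted p = 0.906). Without limma's mean trend the difference of Rpl26 itself did not pass (limma adjusted p = 0.0605). With any 1 of the 4 liver libraries left out the difference was -7.16 to -5.37, in fits that called none of the genes tested. The SE of the strain fits is the spread of the strain difference between the injected and the untreated pair, moderated over genes, with 1 residual degree of freedom. Strain fits with a library left out had no treatment block, so they also compared injected with untreated mice.

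Below the threshold, the liver values of the family leaned to lower levels in MSM. The median difference of the 78 members was -0.18 on the log2 scale, beside 0.01 over all genes tested, and 60 members had a negative value. Lower in MSM than in B6 liver in both tables were 42 members, where 30.8% of all genes tested were, and 9 were higher in both, where 31% were. At an unadjusted p under 0.05, 12 members were lower and 1 was higher, 16.7% of the members, where 16.2% of all genes tested passed. Without the untreated B6 liver library the median was -0.18 and 55 members were negative. Markers of other cells also differed between the livers: Csf1r and Lyz2, 2 of 6 macrophage markers, were lower in MSM liver at the adjusted threshold, and the list summed to 24.6 and 31.1 FPKM in MSM against 107 and 203 in B6. The thymocyte list summed to 59.9 and 38.5 FPKM in MSM liver against 171 and 173 in B6 liver, mostly Cd1d1, and all 7 of its genes tested were lower in MSM, with 1 call (Cd1d1, limma adjusted p = 0.0444). The part of these cells in the members' lean was not tested.

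Rpl13 came nearest to a second call. It stood at 120.4 and 121 FPKM in injected and untreated MSM liver, against 253 and 315 in B6 liver, so that both MSM livers lay below both B6 livers. Its difference was -1.22 ± 0.20 (limma adjusted p = 0.0788), and it passed when libraries were rescaled to a common sum (-1.39, limma adjusted p = 0.0262). Rpl13 was also lower in both MSM thymi, at 254 and 258 FPKM against 385 and 431 in B6 thymi, with a difference of -0.67 ± 0.28 (limma adjusted p = 0.385).

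Rps16 of the small subunit ran the other way in liver. It stood at 205 and 196 FPKM in injected and untreated MSM liver, against 133 and 50.2 in B6 liver, with a difference of 1.28 ± 0.36 (limma adjusted p = 0.21). The 3 P-stalk genes differed by -0.30 to 0.00 in liver, none of them called.

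In thymus no member passed (0 of 78, where 0.973% of all 11610 genes tested did, 0.379% higher and 0.594% lower), while 3 (3.85%) had an unadjusted p under 0.05, where 13.0% of all genes did. The values leaned to higher levels in MSM: the median difference was 0.34 on the log2 scale beside 0.03 over all genes, and 73 of 78 were positive. Higher in MSM than in B6 thymus in both tables were 57 members, where 30.6% of all genes were, and 2 were lower in both, where 28.6% were. The lean was larger between the injected mice (median 0.45) than between the untreated mice (median 0.17). Hepatocyte, airway and brown fat markers were highest in the untreated MSM thymus, and hepatocyte markers were also higher in the injected MSM thymus than in either B6 thymus; their part in the lean was not tested. Without that library the median was 0.37 and 75 members were positive, and without the injected MSM thymus 0.23 and 65.

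Rpl34 had the smallest p in thymus, with a difference of 2.26 ± 0.45 (limma adjusted p = 0.104), which passed with an added value of 0.1 (limma adjusted p = 0.0488) and with robust moderation (limma adjusted p = 0.0241). Its levels correspond to an estimated 5.6 and 5.1 fragments in injected and untreated MSM thymus, against 1.5 and 0.012 in B6 thymus. With Rpl34-ps1 added the difference was 0.37 ± 0.31 (limma adjusted p = 0.673). Next was Rps27l, known as a target of p53, at 136 and 191 FPKM in MSM against 55.5 and 127.5 in B6 thymus, a difference of 0.93 ± 0.27 (limma adjusted p = 0.245). In each table the MSM thymus was the higher of the pair.

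**Figure D3:**
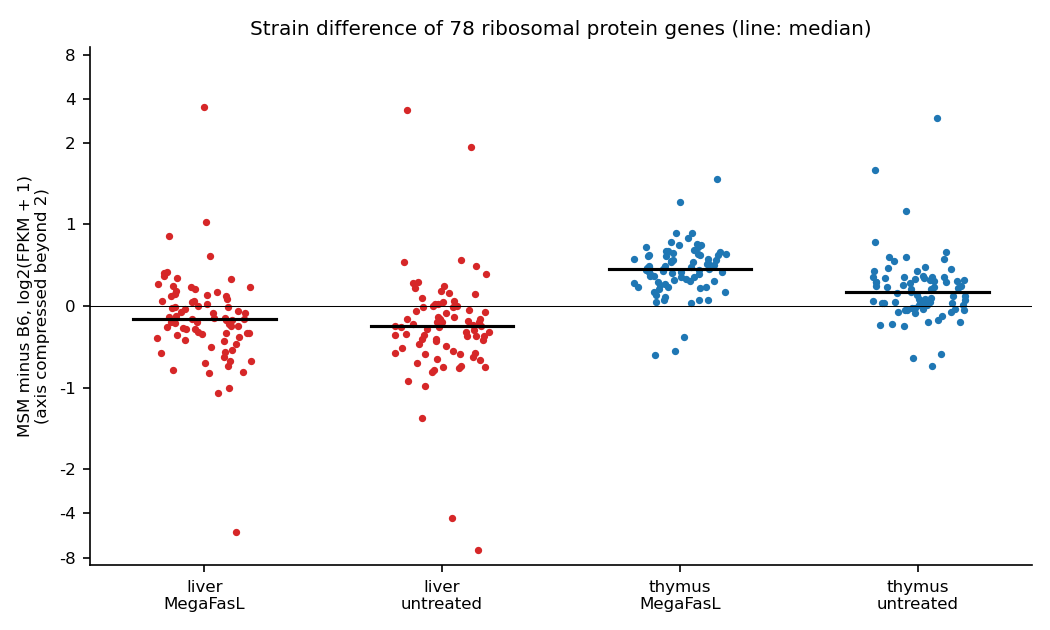
MSM minus B6 difference on log2(FPKM + 1) of 78 ribosomal protein genes (1 point per gene), for each tissue and each of the separately normalized tables. Black lines are medians, -0.16 and -0.25 in liver and 0.45 and 0.17 in thymus for injected and untreated mice, and the axis is compressed beyond 2.

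The strain difference in liver minus that in thymus was fitted over the 4 mice. No member passed (0 of 78, where 0.365% of all 12880 genes tested did, 0.109% higher and 0.256% lower), and 3 (3.85%) had an unadjusted p under 0.05, where 12.6% of all genes did. The median was -0.52 on the log2 scale beside -0.04 over all genes, and 73 of 78 values were negative. Without the untreated MSM mouse the median was -0.59 and 71 values were negative, in a fit that called none of the genes tested. Rpl26 had the smallest p, with -7.13 ± 0.81 (limma adjusted p = 0.0528), and -0.67 ± 0.46 with its copy added (limma adjusted p = 0.608). Rpl13a, which in human cells also acts outside the ribosome in translational silencing, followed with -1.21 ± 0.45 (limma adjusted p = 0.375), at 220 and 243 FPKM in MSM liver against 368 and 355 in B6 liver, and at 751 and 656 FPKM in MSM thymus against 434 and 516 in B6 thymus. The groups did not overlap in either tissue, and their order was opposite.

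The tissues were then compared within each mouse. Of 78 members, 38 were lower and 1 was higher in liver than in thymus (limma adjusted p under 0.05), where 60.7% of all 12880 genes tested were called, 32.1% lower and 28.6% higher. The median difference was -0.62 on the log2 scale beside -0.13 over all genes, and 74 of 78 values were negative. In bulk tissue, fewer cells of a type and less RNA per cell cannot be told apart. The small subunit gave 20 lower, 1 higher and 11 not called of 32 members, and the large subunit 18 lower and 28 not called of 46. Without the injected MSM mouse 16 were lower and 1 was higher, without the untreated MSM mouse 31 were lower and 2 were higher, and without the untreated B6 mouse 25 were lower and 1 was higher.

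Rps27l was the 1 member that was higher in liver. It stood at 520 and 565 FPKM in injected and untreated MSM liver and 414 and 430.5 in B6 liver, against 136 and 191 FPKM in MSM thymus and 55.5 and 127.5 in B6 thymus. Every liver lay above every thymus. The difference was 2.03 ± 0.26 (SE, n = 4 mice, limma adjusted p = 0.00109) and 0.96 after rescaling to a common sum (limma adjusted p = 0.0219). Its paralog Rps27 ran the other way with -1.50 ± 0.17 (limma adjusted p = 0.000664). By the estimated depth, the liver values of Rps27 correspond to 0.36 to 0.91 fragments and the thymus values to 3.00 to 6.82. Rps27 and Gm9846 together gave -0.76 ± 0.32, which did not pass (limma adjusted p = 0.0801). In the summed level of both loci, MSM liver had 718 and 535 FPKM and B6 liver 910.0 and 891, against 1583 and 1564 in MSM thymus and 953 and 1095 in B6 thymus.

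Rpl26 had the largest lower value but did not pass (-1.66 ± 1.49, limma adjusted p = 0.361). After Rps27, the largest lower values that passed included those of Rps15a (-1.29 ± 0.23), Rps3a (-1.12 ± 0.24), Rplp0 (-1.12 ± 0.22) and Rps12 (-1.05 ± 0.26), with limma adjusted p of 0.00368 to 0.0144. The call of Rps12 was lost without the injected MSM mouse (limma adjusted p = 0.0544). Rplp0, the base of the P-stalk, showed the pattern plainly. It stood at 207 and 211 FPKM in MSM liver and 251 and 262 in B6 liver, against 643 and 466 FPKM in MSM thymus and 474 and 451 in B6 thymus. Rps3a stood at 270.5 and 320 FPKM in MSM liver and 404 and 339 in B6 liver, against 870 and 696 in MSM thymus and 618 and 708 in B6 thymus. For both genes every liver lay below every thymus.

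The other P-stalk genes, Rplp1 and Rplp2, differed by -0.65 ± 0.23 (limma adjusted p = 0.0488) and -0.60 ± 0.21 (limma adjusted p = 0.0464). Both calls were lost when any 1 of the 4 mice was left out. Among the 8 highest members, Rpl41 had a difference of 0.00 ± 0.20 and Rpl39, at the wall of the tunnel, one of -0.01 ± 0.30, neither called. Rps2, at the mRNA entry side of the small subunit, stood at 654 and 602 FPKM in MSM liver and 553 and 492 in B6 liver, against 490 and 426 in MSM thymus and 371 and 333 in B6 thymus. Its positive value of 0.51 ± 0.18 did not pass (limma adjusted p = 0.0505) and turned negative on rescaling, as did that of Rpl10. Rescaling to a common sum moved the median of all genes to -1.05 and gave 75 lower and 1 higher member, with a member median of -1.70. Relative to all genes the member median was then -0.65, beside -0.49 for FPKM as deposited.

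**Figure D4:**
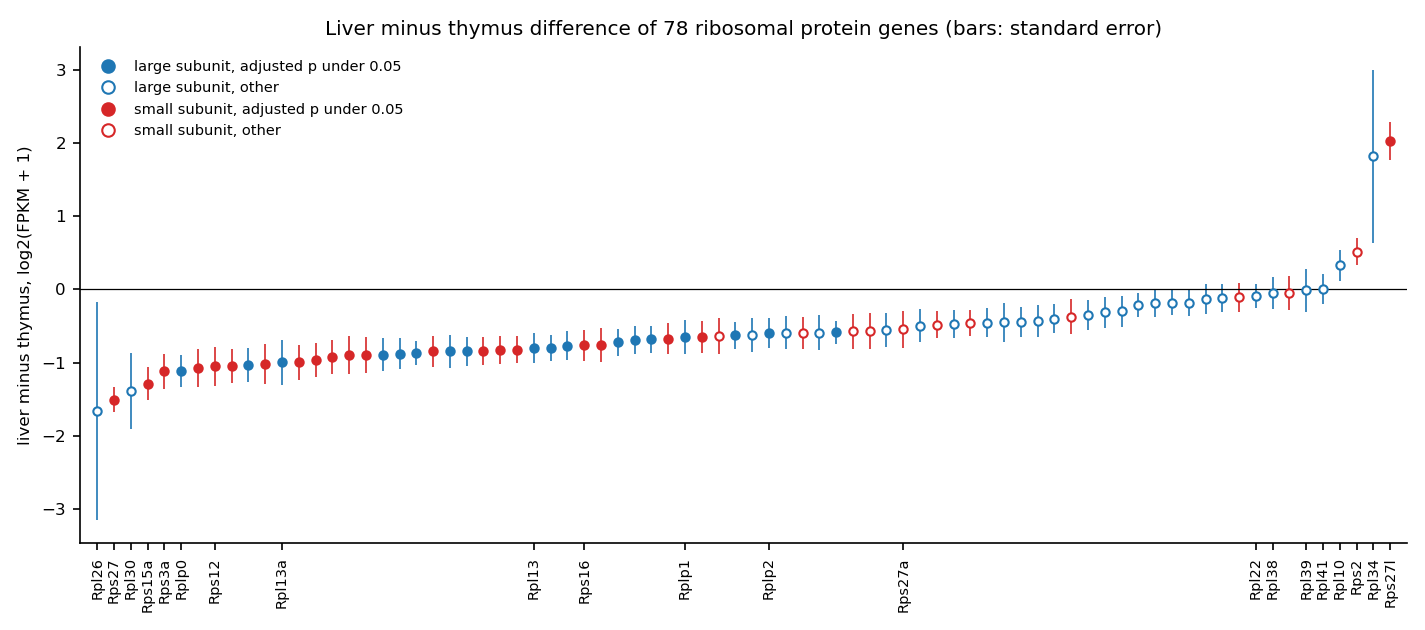
Liver minus thymus difference on log2(FPKM + 1) of 78 ribosomal protein genes in order of size, with standard errors from limma (n = 4 mice). Some of the genes named in the text are labelled on the axis. Filled points passed an adjusted p under 0.05, in 38 members lower and 1 higher (Rps27l), and the wide bars of Rpl26, Rpl30 and Rpl34 belong to the genes near 0 in some libraries.

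Other genes of translation were read for comparison, beside 32.1% of all genes tested that were lower in liver and 28.6% that were higher. Of 19 elongation factor and TOP mRNA genes, 7 were lower and 1 was higher in liver than in thymus, with a median of -0.17. The gene that was higher was Eif4a2, of an initiation helicase (0.67 ± 0.21). The largest values were those of Hnrnpa1 (-2.14 ± 0.17), Nap1l1 (-1.61 ± 0.18), the nucleolar chaperone gene Npm1 (-1.51 ± 0.19) and Eif3k (-0.93 ± 0.18), all passing. Of 32 ribosome biogenesis genes, 14 were lower and 1 was higher, with a median of -0.53. Pno1 was the higher one (0.69 ± 0.22), and the lower ones were led by Tcof1 (-2.76 ± 0.23), Nop56 (-2.09 ± 0.24), Bysl (-1.70 ± 0.16) and Wdr12 (-1.55 ± 0.18). Of 12 genes of ribosomal RNA transcription, 5 were lower and none was higher, led by the selectivity factor subunits Taf1c (-1.92 ± 0.25) and Taf1b (-1.87 ± 0.27) and by Myc (-1.70 ± 0.20), followed by Taf1d (-1.35 ± 0.34) and the upstream binding factor gene Ubtf (-0.98 ± 0.18).

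Regulators of translation had 5 higher and 2 lower of 14, with a median of 0.11. Deptor, an inhibitor of mTOR, was higher in liver by 3.98 ± 0.33, at 56.1 and 27.6 FPKM in MSM liver and 63.9 and 34.6 in B6 liver, against 2.28 and 3.12 in MSM thymus and 1.93 and 0.516 in B6 thymus. Eif4ebp1, a brake on cap-dependent initiation, was higher by 2.17 ± 0.55, Eif4g1 by 1.41 ± 0.15, Eif4ebp2 by 1.17 ± 0.30 and Larp1, which binds TOP mRNAs, by 0.90 ± 0.21. The kinase genes Rps6kb1 (-1.08 ± 0.16) and Eef2k (-1.04 ± 0.20) were lower. The paralog Rpl36al was higher in liver by 0.94 ± 0.19. Gnb2l1, the gene of the ribosome-bound scaffold RACK1, was lower in liver by a difference of -0.97 ± 0.21. The ubiquitin fusion gene Rps27a (-0.54 ± 0.25, a member by its symbol) did not pass, nor did Fau (-0.22 ± 0.18), which encodes a ubiquitin-like fusion. None of the genes of these 5 lists differed between the strains at the adjusted threshold, in liver or in thymus. The smallest limma adjusted p among them was 0.127 (Polr1d in liver, -1.06 ± 0.22).

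The change after MegaFasL could not be tested, since the injected and untreated mice are in separately normalized tables, so that treatment and table cannot be told apart. After centring by the median ratio, 0 of 78 members changed 2-fold or more in the same direction in both strains, in liver (where 2.88% of all genes did, 1.64% higher and 1.24% lower) or in thymus (where 0.698% did, 0.276% higher and 0.422% lower). The member medians in liver were 0.01 in MSM and -0.11 in B6 on the log2 scale, and in thymus 0.08 in MSM and -0.15 in B6. In MSM liver 40 members were positive and 38 negative, so the median there shows no lean. The thymus medians were opposite in sign between the strains. Over all genes the medians lay from -0.01 to 0.00.

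The members named next were picked as the largest differences in the same direction in both strains. In liver 38 of 78 members had the same sign in both strains, where 6232 of 10971 genes did. In thymus 33 of 78 members did, where 5651 of 11610 genes did. In thymus Rps27l was lower after injection by a difference of -0.56 in MSM and -1.23 in B6, and Rps15a (-0.48 and -0.68), Rpl36 (-0.43 and -0.57) and Rps14 (-0.43 and -0.52) followed. The largest higher values included Rps16 (0.56 in MSM and 1.52 in B6), Rps26 (0.63 and 0.40) and Rpl38 (0.33 and 0.21). In liver the largest lower values included those of Rps15a (-0.36 and -0.62), Rps3 (-0.29 and -0.55) and Rpl8 (-0.24 and -0.23). The largest higher ones included Rpl38 (0.28 and 0.14), Rplp2 (0.17 and 0.14) and Rpl6 (0.18 and 0.13). Rps15a was lower and Rpl38 was higher in all 4 pairs of libraries. The MSM thymus values rest on the untreated MSM thymus library, without which there is none. In that pair the median difference was -3.82 for 9 hepatocyte markers, -8.03 for 4 airway markers and -2.95 for 7 brown fat markers, and in the B6 liver pair it was -1.51 for 7 thymocyte markers. Their part in the members' values was not tested.

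**Figure D5:**
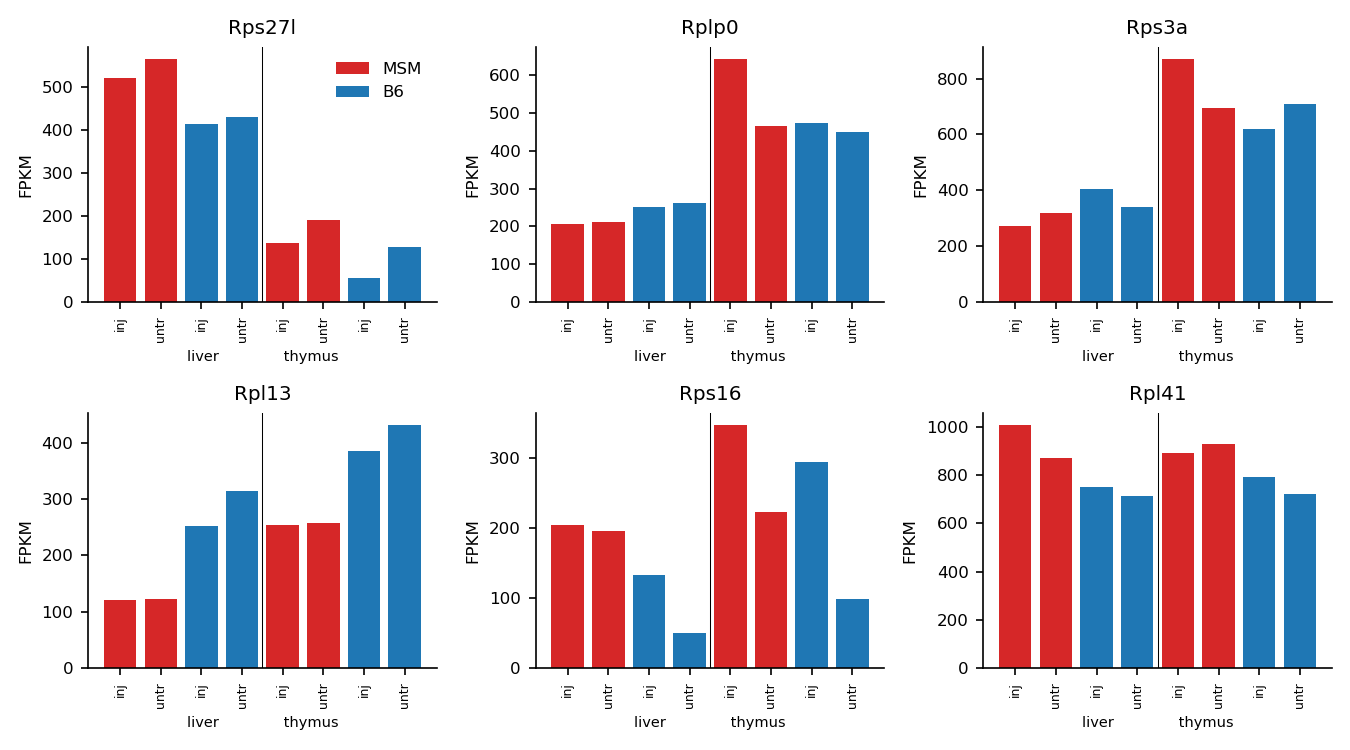
FPKM of 6 ribosomal protein genes in each of the 8 libraries (inj, injected with MegaFasL, untr, untreated), 1 bar per library, MSM in red and B6 in blue. Rps27l is higher in the 4 livers, Rplp0 and Rps3a are lower in them, Rpl13 is lower in MSM than in B6 within each tissue and table, Rps16 is higher in MSM within each, and Rpl41 differs little.

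Features that the symbols did not choose were also shared. Of 80 members with a GENCODE position, 29 (36.2%) held at least 1 annotated snoRNA within the gene on the same strand, 56 snoRNAs in all, against 237 of 18440 protein-coding genes of the tables (1.29%). Rpl4 held 5 and Rpl13a held 4. A TOP-like start, a C followed by at least 4 pyrimidines, began at the first base of the main GENCODE transcript in 10 of 81 members (12.3%), against 2.29% of 20228 protein-coding genes. Within the first 20 bases it occurred in 35 members (43.2%), against 24.1% of these genes. Members lay on 19 chromosomes, with 14 on chromosome 7, but the share of all genes on that chromosome was not computed. A match to these letters describes the annotated start and not a site in use.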

How the data were processed

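The authors deposited FPKM per gene, with confidence bounds, in 1 table for untreated and 1 for injected mice, normalized separately. Per the submitters' processing notes, the tools were TopHat and Cuffdiff 2.2.1 and the build was mm10, which derives from B6, also for MSM reads. Libraries came from polyadenylated RNA with a TruSeq kit, per the labels' protocols, and all 8 carried the same 23284 genes with 1 library per group. Differences were fitted with limma 3.58.1 (R 4.3.3, mean trend, two-sided, Benjamini-Hochberg over all genes tested, threshold 0.05) on log2(FPKM + 1), for genes whose mean reached 1 FPKM in a tissue compared. The added 1 understates changes of low genes. The strain fits had treatment as a block, the tissue fit had mouse as a block, and the third fit took the liver minus thymus difference of each mouse. P-values measure the spread among these mice, which differ in treatment or strain. Libraries were centred by the median ratio for the injection only.

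Depth was estimated from whole-fragment steps in the low FPKM of 2015 long genes. It came to 1.59 to 1.82 fragments per FPKM and kb in liver and 2.83 to 3.43 in thymus, with 70.1% to 73.2% of low values whole within 0.1, against 20% by chance. At 250 FPKM on 600 bases this gives 143 to 343 fragments, a counting error of 5.4% to 8.36%. These figures cover counting error only. Copies were found as exact matches of 50 coding bases in GENCODE M21 transcripts. The code was tested on simulated data.

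Members, lists and tests were chosen with earlier results of these data known. Named members are those that passed a strain or interaction test, were near 0 in some libraries only, had the 8 highest means, the 6 largest tissue differences each way, or the 4 largest changes after injection each way, the P-stalk genes, Rpl26, Rpl34 and the paralogs. Other members named (Rpl13, Rpl13a, Rpl22, Rpl4), Polr1d and the called genes outside the leading 4 of a list were chosen after their values were seen. A few members are counted here but not reported by name.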

Additional observations from a re-analysis of the deposited data

How the results depend on the processing

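No pairing by replicate number was possible, since every group holds 1 library. Strain and interaction fits with a library or mouse left out had no treatment term, so they changed the model as well as the samples. The tissues of a mouse were paired by the mouse itself, and without that block 44 members passed in the tissue comparison. In the liver strain comparison, 1 member passed; rescaling to a common sum gave 2, fitting without the mean trend gave 0, adding the copies, chosen after seeing the data, gave 0. Leaving out each liver library also gave 0, in fits that called none of all genes tested, with Rpl26 at -7.16 to -5.37. In thymus 0 passed, and 1 (Rpl34) with an added value of 0.1 or with robust moderation. In the tissue comparison 39 passed, 76 after rescaling and 17 to 33 with each mouse left out. The interaction and injection counts were 0 under every alternative run, but 3 of the 4 interaction fits without a mouse called none of all genes tested and say nothing of stability. Every summed share rose with the smaller denominator, to 4.64%, 5.02%, 5.25% and 5.81% in liver and 14.7%, 14.9%, 12.1% and 13.5% in thymus (MSM injected, MSM untreated, B6 injected, B6 untreated). The 3 members near 0 in some libraries became 0 with the copies added, by construction, since the copies stood at 223 FPKM or more throughout. The sign turned for Rpl34 in the liver strain difference with an added value of 5 (0.41), without the untreated MSM library (3.02) and without the untreated B6 library (0.10), where leaving out each liver library gave -3.82 to 3.02. It also turned in the interaction without the untreated MSM mouse (0.79), where leaving out each mouse gave -6.12 to 0.79, and in the tissue comparison with the copies added (-0.13). Without the untreated MSM mouse, Rpl34 passed in the tissue comparison (3.41, limma adjusted p = 0.0024). The cause of these changes was not tested, save that the copies enter by construction. By the estimated depth, 1 fragment on Rpl34 corresponds to 2.2 to 2.62 FPKM in liver and to 1.04 to 1.36 FPKM in thymus. Values of a few FPKM therefore rest on few fragments.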
